A study of Homo sapiens with 3 samples.

Results

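Calcium release channels, calcium pumps and the calcium sensor of the endoplasmic reticulum were followed in 3 RNA sequencing libraries of Hep3B, a human hepatocellular carcinoma line. The set named 10 genes: the ryanodine receptors RYR1, RYR2 and RYR3, the inositol trisphosphate (IP3) receptors ITPR1, ITPR2 and ITPR3, the calcium pumps ATP2A2 and ATP2A3, the sensor STIM1 and the plasma membrane channel ORAI1. They were matched by symbol to the Ensembl identifiers of the table. Of the 10, 9 were found among 22827 genes, and ORAI1 was not matched and is not analysed here. The set was selected on measured values: it was chosen by the RYR1 counts, low in SIRT7-KO and not in USP39-KO, so the RYR1 ratios of both knockouts are given as a description and support nothing.

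The groups were SIRT7-KO, USP39-KO and control, all labelled Hep3B, with 1 library each. SIRT7 is a nuclear deacylase of the sirtuin family, and USP39 is a splicing factor related to ubiquitin proteases. The sources used here do not say how the knockouts were made, whether they are single clones or what the control cells carry. Counts summed to 16151522 in SIRT7-KO, 16630636 in USP39-KO and 19427940 in the control. With 1 library per group no difference had a replicate check, so there are no tests and no p-values. The comparisons describe these libraries, and both knockouts were set against the same control library. SIRT7 had 608 reads in SIRT7-KO, 808 in USP39-KO and 984 in the control, and USP39 had 1066 reads in USP39-KO, 1511 in SIRT7-KO and 1829 in the control. Each target was lowest in the library named for it, at a log2 ratio of -0.44 for SIRT7 and -0.54 for USP39. The hepatocyte markers went against the labelled liver line: 10 of 11 had under 10 reads in every library, and ALB, AFP, TTR, APOB, APOA2 and HP had 0 reads in all 3. The remaining marker, FGB, had 2 reads in SIRT7-KO, 1 in USP39-KO and 55 in the control. Its log2 ratio to the control was -4.25 in SIRT7-KO and -5.01 in USP39-KO. FGB reached 10 counts in the control alone, so it could be called only lower.

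Cells keep calcium in the endoplasmic reticulum, or the sarcoplasmic reticulum of muscle, far above its level in the cytosol. SERCA pumps, encoded by the ATP2A genes, load this store. Ryanodine receptors and IP3 receptors are the large tetrameric channels that release it, the first opened in muscle by excitation of the membrane and the second by IP3 made by phospholipase C. When the store empties, STIM proteins in its membrane bind ORAI channels at the cell surface and calcium enters. RYR1 is known from skeletal muscle, RYR2 from heart and RYR3 from brain and other tissues at low levels. In rat liver, types 1 and 2 are the main IP3 receptors of hepatocytes and type 3 is found in bile duct cells.

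The 2 ryanodine receptor genes with the largest differences were RYR1 and RYR2, and the 250 bases before their RefSeq start sites are shown because they lie directly before the annotated start of transcription. Both were taken from RefSeq on GRCh38.p14, plus strand, at chr19:38433441-38433690 for RYR1 and chr1:237041934-237042183 for RYR2. Capitals mark GGGCGG or its complement CCGCCC, the core of the GC box bound by SP1.
RYR1: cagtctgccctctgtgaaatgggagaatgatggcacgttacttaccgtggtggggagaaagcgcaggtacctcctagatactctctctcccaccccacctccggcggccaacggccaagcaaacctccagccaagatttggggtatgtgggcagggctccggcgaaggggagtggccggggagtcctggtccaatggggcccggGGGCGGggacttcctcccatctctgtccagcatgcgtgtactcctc
RYR2: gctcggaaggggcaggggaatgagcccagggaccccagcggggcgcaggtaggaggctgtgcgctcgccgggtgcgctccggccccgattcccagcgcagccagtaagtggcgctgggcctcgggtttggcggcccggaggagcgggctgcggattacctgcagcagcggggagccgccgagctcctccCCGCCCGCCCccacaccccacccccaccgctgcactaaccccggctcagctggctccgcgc

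The RYR1 stretch held 1 match to GGGCGG, and the RYR2 stretch held 2, which overlap each other. Of 35116 RefSeq promoters of the same length, 42.6% held at least 1 match on either strand. The letters TATAAA, on either strand, were in neither stretch and in 10.7% of all promoters. The cyclic AMP response element TGACGTCA, which is its own complement, was in neither and in 1.65% of all. The E-box pattern CANNTG, also read the same on both strands, was absent from the RYR1 stretch, found once in the RYR2 stretch and found in 61.8% of all promoters. The CpG dinucleotide was counted 12 times in the RYR1 stretch and 25 times in the RYR2 stretch, against a median of 11 over all promoters. GC content was 62.4% for RYR1 and 75.2% for RYR2, against a median of 58% over all promoters. No binding or methylation was measured in these cells, and a match is a description of the letters.

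Levels were compared between genes as FPKM, which are counts scaled by the listed gene length and the library total. The IP3 receptors ITPR3 and ITPR1 and the pump ATP2A2 led in all 3 libraries. STIM1, ATP2A3 and ITPR2 formed a middle group, and the ryanodine receptors were lowest in SIRT7-KO and the control. In SIRT7-KO the order was ITPR3 (57.4 FPKM), ATP2A2 (53.3), ITPR1 (35.3), ATP2A3 (9.60), STIM1 (8.49), ITPR2 (4.17), RYR2 (1.67), RYR3 (0.108) and RYR1 (0.0116). There the intervals of ATP2A3 and STIM1 overlapped. In USP39-KO the order was ITPR3 (59.9 FPKM), ITPR1 (53.0), ATP2A2 (45.3), STIM1 (7.83), ATP2A3 (5.22), RYR2 (4.73), ITPR2 (4.50), RYR1 (0.832) and RYR3 (0.157). There the intervals of RYR2 overlapped those of both ATP2A3 and ITPR2, its neighbours above and below. In the control the order was ITPR3 (69.1 FPKM), ITPR1 (45.5), ATP2A2 (38.9), STIM1 (7.90), ATP2A3 (6.89), ITPR2 (4.91), RYR2 (2.01), RYR1 (0.809) and RYR3 (0.234). Exact 95% Poisson intervals of neighbouring genes did not overlap in that library. These intervals do not cover the choice of gene length. At its GENCODE 29 length ITPR1 would stand at 18.1 FPKM in the control, below ATP2A2. RYR2 stood level with ITPR2 in USP39-KO and below it in SIRT7-KO and the control.

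**Figure D1:**
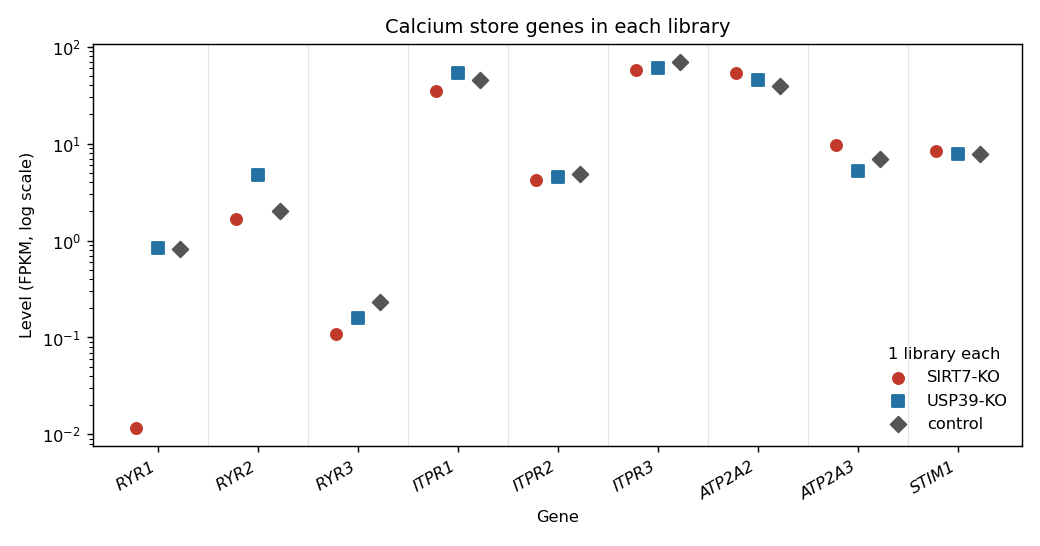
Level of each of the 9 genes found, as FPKM on a log axis, in SIRT7-KO (circles), USP39-KO (squares) and control (diamonds), 1 library each and no error bars. ITPR3, ITPR1 and ATP2A2 lie above 30 FPKM in every library, and RYR1 in SIRT7-KO lies far below its other points, at 0.0116 FPKM.

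The 12726 genes that reached 10 counts in some library set the scale for ranks, and the abundant members ranked high among them. ITPR3 exceeded 94.9% of these genes in SIRT7-KO, 95.1% in USP39-KO and 96.2% in the control. RYR2 exceeded 25.0% of them in SIRT7-KO, 44.1% in USP39-KO and 27.6% in the control. RYR1 exceeded 0.448% in SIRT7-KO, 18.1% in USP39-KO and 16.8% in the control. These ranks rest on the listed lengths, whose annotation the sources used here do not state. ITPR1 was listed at 12902 bases, while its merged exons span 32454 bases in GENCODE 29, a length at which its control level would be 18.1 FPKM. RYR3 was listed at 16041 bases, against 20370 in GENCODE 29.

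Library differences were read as the log2 ratio of normalised counts with its exact 95% interval, which covers counting error only. A gene was called higher or lower when the ratio was at least 2-fold and the interval excluded 0. In SIRT7-KO against control, 2 of the 9 genes were lower, RYR1 and RYR3, and 0 were higher. By the same rule, 4.05% of all 12726 genes were lower and 3.02% higher. In USP39-KO against control, 1 of the 9 was higher and 0 were lower, while 1.49% of all genes were higher and 3.37% lower. Between the knockouts, 2 of the 9, RYR1 and RYR2, were lower in SIRT7-KO than in USP39-KO and 0 were higher. Of all genes, 3.51% were lower and 5.03% higher. All 9 passed the filter of 10 counts, and each of the called genes was a ryanodine receptor. The median log2 ratio of the 9 was -0.28 in SIRT7-KO against control, where the median of all genes was -0.01. It was 0.0029 in USP39-KO against control, where the median of all genes was -0.0022. In SIRT7-KO against USP39-KO it was -0.14, where the median of all genes was -0.0042. Log2 ratios were below 0 for 6 of the 9 in SIRT7-KO against control, against 51.3% of all genes. In USP39-KO against control 5 of the 9 were above 0 and 4 below, against 49.6% and 50.4% of all genes. In SIRT7-KO against USP39-KO 3 of the 9 were above 0 and 6 below, also against 49.6% and 50.4% of all genes. Since RYR1 in SIRT7-KO chose the set, nothing is read from its count there. The counts of called genes, the medians and the signs of the 9 include RYR1. They are therefore partly fixed in advance, and nothing is read from their distance to the values of all genes.

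**Figure D2:**
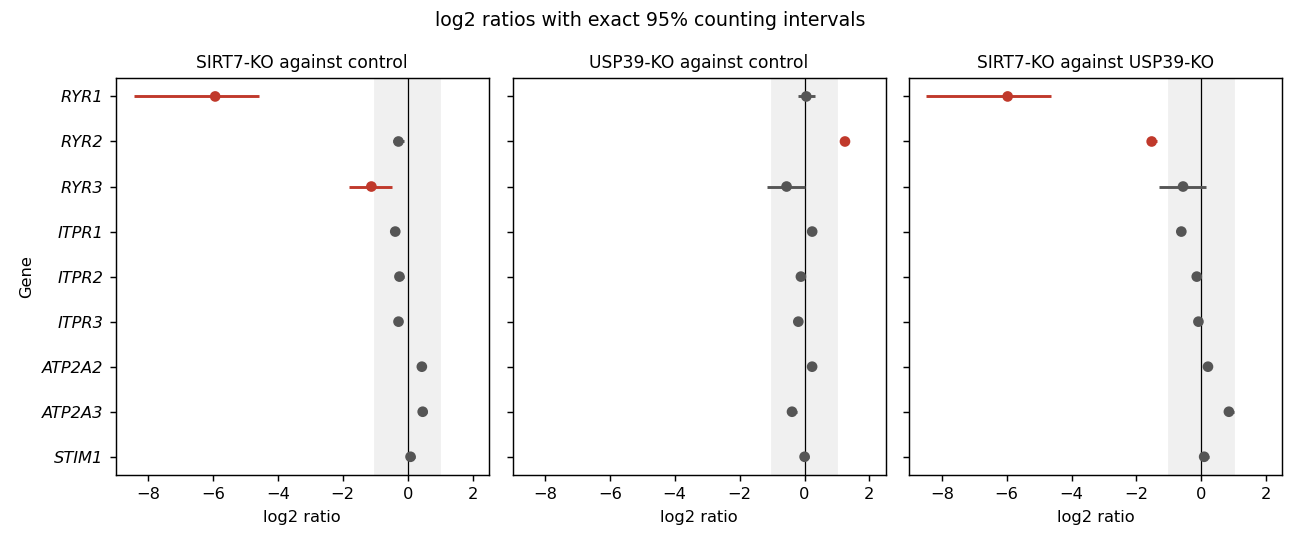
log2 ratio of each gene with its exact 95% counting interval (horizontal line) in SIRT7-KO against control, USP39-KO against control and SIRT7-KO against USP39-KO. Red marks genes called higher or lower, grey points were not called, and the shaded band spans less than 2-fold. RYR1 and RYR3 are called in SIRT7-KO, RYR2 in USP39-KO, and RYR1 and RYR2 between the knockouts.

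RYR1 (ENSG00000196218; chromosome 19, 38433699 to 38587564, plus strand, GRCh38 in GENCODE 29) encodes the release channel of skeletal muscle. It had 3 reads in SIRT7-KO, 221 in USP39-KO and 251 in the control. In CPM, counts scaled to a common normalised library size, these were 0.184 in SIRT7-KO, 13.4 in USP39-KO and 12.9 in the control. The SIRT7-KO library stood apart, and USP39-KO and control were close to each other. In SIRT7-KO the RYR1 level was 70.3-fold lower than in the control (interval 23.8 to 343), or -5.93 as a log2 ratio with 0.5 counts added. In USP39-KO its log2 ratio to the control was 0.06, with an interval of -0.21 to 0.32. In SIRT7-KO against USP39-KO it was 73.0-fold lower (24.7 to 357). Only 8 of the 12726 genes had a lower log2 ratio than RYR1 in SIRT7-KO against control, a rank that follows from how the set was chosen. An antisense gene on the opposite strand, AC067969.2, shares 287 exon bases with RYR1 and had no row of its own. Whether the counting used strand is unstated, so reads of the pair cannot be told apart.

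The sample was bulk RNA, so fewer cells with a transcript and less of it per cell cannot be told apart. Markers of skeletal muscle, where RYR1 is best known, had under 10 reads in every library for 6 of 12. MYOD1 and MYOG, regulators of muscle differentiation, had 0 reads in all 3 libraries, as did MYH7 and TNNT3. The 12 markers summed to 10.04 FPKM in SIRT7-KO, 8.61 in USP39-KO and 7.13 in the control. Most of that sum came from the slow troponin TNNT1, at 7.67 FPKM in SIRT7-KO, 6.51 in USP39-KO and 5.74 in the control. Of the 6 measured markers, 5 were above 0 and 1 below in each knockout against control. The only marker called was the myosin MYH2, with 64 reads in SIRT7-KO, 58 in USP39-KO and 25 in the control. It was higher in both knockouts, at log2 ratios of 1.59 in SIRT7-KO and 1.43 in USP39-KO. The part of these markers in the RYR1 result was not tested. Other genes that work with RYR1 in muscle varied in level. The calsequestrins CASQ1 and CASQ2, which bind calcium in the store, and the voltage sensor CACNA1S had 0 reads in all 3 libraries. JPH1, a junctophilin that holds the store membrane to the cell membrane, had 502 reads in SIRT7-KO, 493 in USP39-KO and 494 in the control. JPH2, its relative in heart, had 301 in SIRT7-KO, 266 in USP39-KO and 496 in the control, and TMEM38A, a cation channel of the store membrane, had 195 in SIRT7-KO, 211 in USP39-KO and 332 in the control. These 6 were named after their values were seen, and none was called. STAC3 and JPH3, 2 other partners named after their values were seen, were above the control in SIRT7-KO. STAC3 was called higher there, with 23 reads against 12 (log2 ratio 1.15, 0.12 to 2.33). JPH3 had 695 against 504 (0.71, 0.55 to 0.88) and was not called. Of the 17 measured release channel partners, 9 were above 0 and 8 below in SIRT7-KO against control.

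RYR2 (ENSG00000198626; chromosome 1, 237042205 to 237833988, plus strand) encodes the release channel of the heart and was the most abundant ryanodine receptor in each library. It had 480 reads (29.4 CPM) in SIRT7-KO, 1401 (85.1 CPM) in USP39-KO and 696 (35.8 CPM) in the control. USP39-KO was the high library, and SIRT7-KO lay slightly under the control. RYR2 rose 2.38-fold in USP39-KO against control (log2 ratio 1.25, interval 1.12 to 1.38). Its log2 ratio in SIRT7-KO against control was -0.28 (-0.46 to -0.11), an interval below 0 but short of the 2-fold rule. In SIRT7-KO against USP39-KO it was 2.89-fold lower (2.61 to 3.22). Of the 7 cardiac markers 6 had under 10 reads in every library. The 7 summed to 7.99 FPKM in SIRT7-KO, 4.54 in USP39-KO and 2.78 in the control, nearly all from the cardiac actin ACTC1, whose reads may be shared with its near-identical relatives. ACTC1 was called higher in SIRT7-KO against control (log2 ratio 1.52) and was not called in USP39-KO (0.74). MYH6 and NPPB had 0 reads in all 3 libraries. The 7 neuron markers, of cells that also use RYR2, summed to 3.01 FPKM in SIRT7-KO, 5.18 in USP39-KO and 4.77 in the control, with STMN2 at 0 reads throughout. Most of that sum was SNAP25, at 1.57 FPKM in SIRT7-KO, 3.87 in USP39-KO and 3.91 in the control. The others did not share its order. TUBB3 had 87 reads in SIRT7-KO, 67 in USP39-KO and 47 in the control, and MAP2 had 61, 72 and 39. RBFOX3 had 16 reads in SIRT7-KO, 31 in USP39-KO and 19 in the control. Of the 5 measured, TUBB3 was called higher and SNAP25 lower in SIRT7-KO, and MAP2 higher in USP39-KO, each against control. SYT1 had 12 in SIRT7-KO, 10 in USP39-KO and 24 in the control. The part of these markers in the RYR2 result was not tested.

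RYR3 (ENSG00000198838; chromosome 15, 33310945 to 33866121, plus strand) was the scarcest ryanodine receptor in USP39-KO and the control. It had 28 reads (1.72 CPM) in SIRT7-KO, 42 (2.55 CPM) in USP39-KO and 73 (3.76 CPM) in the control. Both knockouts lay under the control. RYR3 fell by 1.12 on the log2 scale in SIRT7-KO against control (interval -1.81 to -0.48), just past the 2-fold rule. In USP39-KO its log2 ratio was -0.55, with an interval of -1.14 to 0.01 that includes 0. The knockouts were not distinguished at this depth (SIRT7-KO against USP39-KO -0.56, interval -1.32 to 0.15). With under 100 reads in every library RYR3 is the least precise of the family next to RYR1 in SIRT7-KO, and a filter at 100 counts removes it. Antisense genes without a row of their own share 566 of its exon bases.

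The make-up of the ryanodine receptor family is given as a description, since its SIRT7-KO shares follow from the RYR1 count that chose the set. RYR2 held 93.9% of the family's 511 reads in SIRT7-KO (exact 95% interval 91.5 to 95.8%), 84.2% of 1664 in USP39-KO (82.4 to 85.9%) and 68.2% of 1020 in the control (65.3 to 71.1%). RYR1 held 0.587% in SIRT7-KO (0.121 to 1.71%), 13.3% in USP39-KO (11.7 to 15.0%) and 24.6% in the control (21.99 to 27.4%). The share of RYR1 was lower than in the control in both knockouts. In SIRT7-KO the RYR1 reads themselves were few, and in USP39-KO the RYR1 level was near that of the control while RYR2 was higher. Summed over the 3 genes, the family's log2 ratio to the control was -0.75 in SIRT7-KO (-0.90 to -0.59) and 0.95 in USP39-KO (0.83 to 1.06), and it too contains the RYR1 count. Without RYR1, a sum added after seeing the data, RYR2 and RYR3 had 508 reads in SIRT7-KO, 1443 in USP39-KO and 769 in the control. The log2 ratio of that sum to the control was -0.35 in SIRT7-KO (-0.51 to -0.18) and 1.15 in USP39-KO (1.02 to 1.28).

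**Figure D3:**
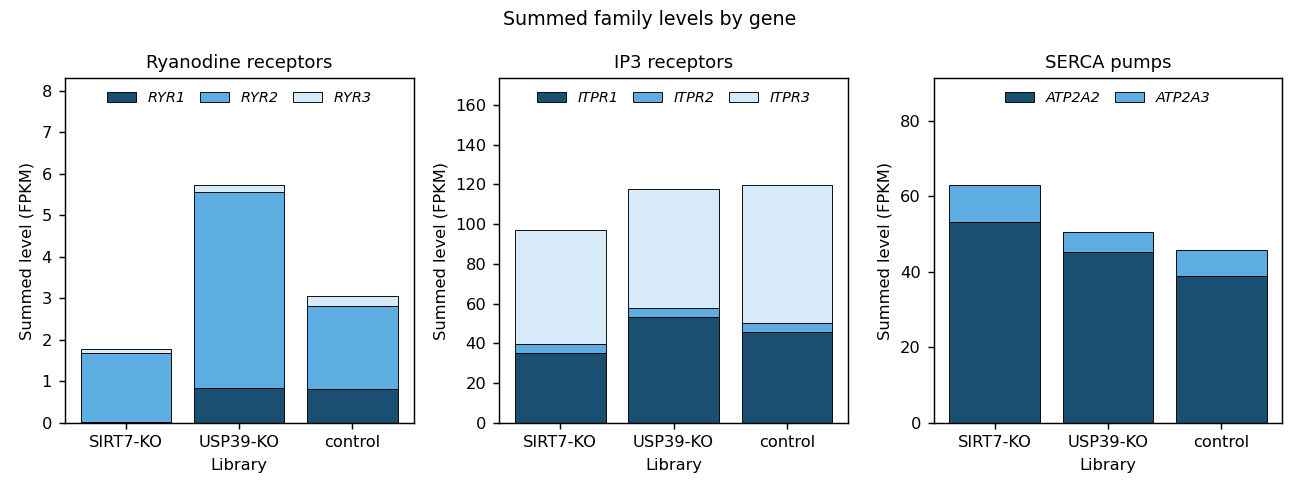
Summed level of each family in FPKM, stacked by gene, for ryanodine receptors, IP3 receptors and SERCA pumps in SIRT7-KO, USP39-KO and control, 1 library each. Ryanodine receptors sum to 1.79 FPKM in SIRT7-KO, 5.72 in USP39-KO and 3.06 in the control, while the IP3 receptors sum to 96.9 FPKM in SIRT7-KO, 117 in USP39-KO and 120 in the control. The vertical scales differ between panels.

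The IP3 receptors carried most of the release channel RNA and differed less. ITPR1 (ENSG00000150995; chromosome 3, 4493345 to 4847840, plus strand), the receptor best known from Purkinje neurons, had 7353 reads (451 CPM) in SIRT7-KO, 11382 (692 CPM) in USP39-KO and 11406 (587 CPM) in the control. SIRT7-KO was the low library and USP39-KO the high one. Its log2 ratio was -0.38 (-0.42 to -0.34) in SIRT7-KO against control and 0.24 (0.20 to 0.27) in USP39-KO against control. Between the knockouts it was -0.62 (-0.66 to -0.58), the largest IP3 receptor difference measured and short of the 2-fold rule.

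ITPR2 (ENSG00000123104; chromosome 12, 26336515 to 26833198, minus strand), a main receptor of rat hepatocytes, was the scarcest of the 3. It had 798 reads (48.9 CPM) in SIRT7-KO, 888 (54.0 CPM) in USP39-KO and 1132 (58.3 CPM) in the control, with both knockouts under the control. Its log2 ratio was -0.25 (-0.39 to -0.12) in SIRT7-KO against control, and -0.11 (-0.24 to 0.02) in USP39-KO against control, where the interval includes 0. ITPR3 (ENSG00000096433; chromosome 6, 33620365 to 33696574, plus strand), the receptor of bile duct cells in rat liver, had 9158 reads (561 CPM) in SIRT7-KO, 9834 (598 CPM) in USP39-KO and 13250 (682 CPM) in the control. Both knockouts lay under the control, at log2 ratios of -0.28 (-0.32 to -0.24) in SIRT7-KO and -0.19 (-0.23 to -0.15) in USP39-KO. The ITPR3 exons share 1025 bases with UQCC2 on the opposite strand, a gene with 269 reads in SIRT7-KO, 284 in USP39-KO and 355 in the control.

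All 3 IP3 receptors were thus below the control in SIRT7-KO by less than 2-fold, while in USP39-KO ITPR1 was above it and ITPR3 below it. By FPKM, ITPR3 exceeded ITPR1 by 1.63-fold in SIRT7-KO, 1.13-fold in USP39-KO and 1.52-fold in the control. These values use the listed ITPR1 length of 12902 bases and would be larger at its GENCODE 29 length of 32454. ITPR3 exceeded ITPR2 by 13.8-fold in SIRT7-KO, 13.3-fold in USP39-KO and 14.1-fold in the control. The summed reads of the family had a log2 ratio to the control of -0.32 (-0.35 to -0.30) in SIRT7-KO and 0.02 (-0.01 to 0.04) in USP39-KO.

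The pumps that fill the store went the other way in SIRT7-KO, again by less than 2-fold. ATP2A2 (ENSG00000174437; chromosome 12, 110280756 to 110351093, plus strand), the widely used SERCA pump, had 11831 reads (725 CPM) in SIRT7-KO, 10362 (630 CPM) in USP39-KO and 10398 (535 CPM) in the control. Both knockouts lay above the control. Its log2 ratio was 0.44 (0.40 to 0.48) in SIRT7-KO against control and 0.23 (0.19 to 0.27) in USP39-KO against control. ATP2A3 (ENSG00000074370; chromosome 17, 3923870 to 3964464, minus strand), a SERCA pump known from blood cells and epithelia, had 1065 reads (65.3 CPM) in SIRT7-KO, 596 (36.2 CPM) in USP39-KO and 919 (47.3 CPM) in the control. SIRT7-KO was high and USP39-KO low. Its log2 ratio was 0.46 (0.34 to 0.59) in SIRT7-KO and -0.39 (-0.54 to -0.24) in USP39-KO, each against control. In SIRT7-KO against USP39-KO it was 0.85 (0.70 to 1.00), the value nearest to the 2-fold rule among those that missed it. ATP2A2 exceeded ATP2A3 by 5.55-fold in SIRT7-KO, 8.68-fold in USP39-KO and 5.65-fold in the control by FPKM.

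STIM1 (ENSG00000167323; chromosome 11, 3854527 to 4093210, plus strand), the sensor of store calcium, was the steadiest of the 9. It had 934 reads (57.2 CPM) in SIRT7-KO, 887 (53.9 CPM) in USP39-KO and 1045 (53.8 CPM) in the control. Its log2 ratios were 0.09 (-0.04 to 0.22) in SIRT7-KO and 0.0029 (-0.13 to 0.13) in USP39-KO, each against control, and both intervals include 0. Its relative STIM2 had 243 reads in SIRT7-KO, 344 in USP39-KO and 437 in the control, with a log2 ratio of -0.59 (-0.83 to -0.37) in SIRT7-KO against control. ORAI2 and ORAI3, the relatives of ORAI1, had 1295 and 52 reads in SIRT7-KO, 1300 and 53 in USP39-KO, and 1253 and 49 in the control. These 3 relatives were named after their values were seen, and none of them was called.

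The rest of the calcium pathway was read through 10 lists of 181 genes, of which 177 were found and 127 passed the count filter. In SIRT7-KO against control 2 of the 127 were higher and 7 lower, or 7.09% called, against 7.06% of all genes. In USP39-KO against control 2 were higher and 7 lower, or 7.09% called, against 4.86% of all genes. Between the knockouts 4 were higher and 6 lower in SIRT7-KO, or 7.87% called, against 8.54% of all genes. The share in SIRT7-KO was thus near that of all genes. Of the genes called, 5 of 9 in SIRT7-KO and 3 of 9 in USP39-KO had under 30 reads in every library. They were STAC3 (higher), PLCB4, SLC8A2, CACNA1C and CACNA2D2 (lower) in SIRT7-KO, and SYPL2, SLC8A2 and CACNA1C (lower) in USP39-KO, named after their values were seen. PLCB4, SLC8A2, CACNA1C and SYPL2 reached 10 counts in the control alone, so they could be called only lower and nothing is read from their direction.

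**Figure D4:**
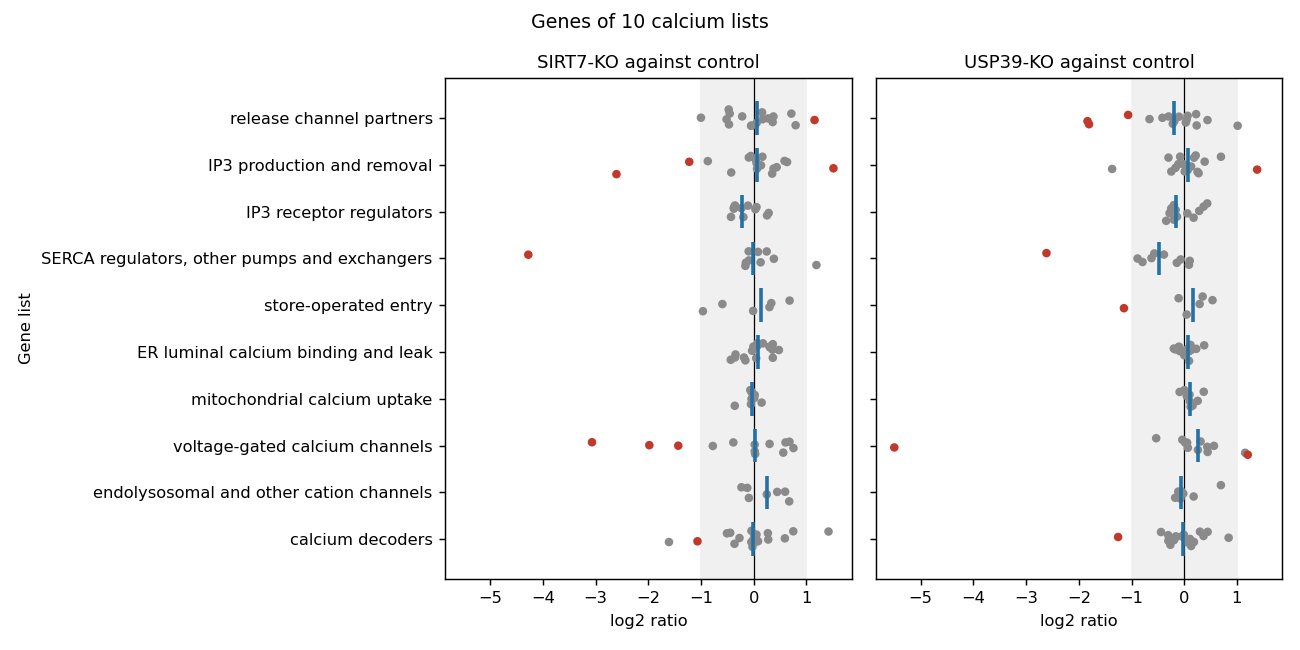
log2 ratio of each gene of the 10 calcium lists (points, spread vertically at random within a list) in SIRT7-KO against control and USP39-KO against control. Red points were called, grey points were not, blue lines are list medians and the shaded band spans less than 2-fold. Most points lie inside the band, and the list medians lie between -0.48 and 0.26.

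The IP3 production and removal list had 17 genes past the filter. In SIRT7-KO 1 was higher and 2 lower, with a median log2 ratio of 0.06, and in USP39-KO 1 was higher and 0 lower, with a median of 0.07. PLCB2, a phospholipase C activated by G proteins, had 20 reads in SIRT7-KO, 98 in USP39-KO and 44 in the control, and rose in USP39-KO (log2 ratio 1.38, 0.87 to 1.94). Its log2 ratio in SIRT7-KO against control was -0.87 (-1.73 to -0.09). PLCD1, a phospholipase C stimulated by calcium, had 56 reads in SIRT7-KO, 18 in USP39-KO and 23 in the control, and rose in SIRT7-KO (1.51, 0.81 to 2.30). INPP1, a phosphatase that breaks down inositol phosphates, had 130 reads in SIRT7-KO, 349 in USP39-KO and 362 in the control, and fell in SIRT7-KO (-1.22, -1.53 to -0.93), with 0.19 (-0.03 to 0.40) in USP39-KO. The most abundant gene of the list, the phospholipase PLCB3, had 0.06 in SIRT7-KO and 0.01 in USP39-KO.

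The partners of the release channels, 17 measured genes, had 1 higher and 0 lower in SIRT7-KO (median 0.05), and 0 higher and 3 lower in USP39-KO (median -0.19). HOMER1 and HOMER2, scaffolds that tie release channels to surface receptors, were both lower in USP39-KO. HOMER1 had 224 reads in SIRT7-KO, 148 in USP39-KO and 366 in the control (USP39-KO against control -1.06, -1.35 to -0.79). HOMER2 had 44 reads in SIRT7-KO, 17 in USP39-KO and 73 in the control (USP39-KO against control -1.84, -2.72 to -1.09). In SIRT7-KO the log2 ratios of HOMER1 and HOMER2 were -0.46 and -0.47. FKBP1A, the small protein that binds and steadies ryanodine receptors, was the most abundant partner, with -0.05 in SIRT7-KO and -0.19 in USP39-KO. None of the 12 measured IP3 receptor regulators was called in any comparison, and their medians were -0.21 in SIRT7-KO and -0.15 in USP39-KO. AHCYL1, which competes with IP3 for the receptor, led that list with -0.20 in SIRT7-KO and -0.16 in USP39-KO.

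The voltage-gated calcium channel list had 13 measured genes, with 0 higher and 3 lower in SIRT7-KO (median 0.02), and 1 higher and 1 lower in USP39-KO (median 0.26). CACNB2, a beta subunit of these channels, was called in opposite directions. It had 24 reads in SIRT7-KO, 153 in USP39-KO and 78 in the control, with -1.43 (-2.17 to -0.77) in SIRT7-KO and 1.21 (0.81 to 1.62) in USP39-KO, each against control. CACNG8, better known as an auxiliary protein of glutamate receptors, had 16 reads in SIRT7-KO, 38 in USP39-KO and 33 in the control, and was called only between the knockouts (SIRT7-KO against USP39-KO -1.21, -2.18 to -0.36). CACNA2D1, the most abundant of the list, was above the control by less than 2-fold in both, at 0.60 in SIRT7-KO and 0.44 in USP39-KO.

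Store-operated entry had 6 measured genes, with 0 called in SIRT7-KO and 1 lower in USP39-KO (medians 0.14 in SIRT7-KO and 0.17 in USP39-KO). Both medians were below 0 when no count filter was used. CRACR2B, a calcium-binding relative of the ORAI regulator CRACR2A, had 45 reads in SIRT7-KO, 40 in USP39-KO and 105 in the control, with -0.96 (-1.51 to -0.45) in SIRT7-KO and -1.14 (-1.72 to -0.61) in USP39-KO. SARAF, which damps store-operated entry, had -0.01 in SIRT7-KO and 0.05 in USP39-KO. SERCA regulators, other pumps and exchangers, 10 measured genes, had 0 higher and 1 lower in each knockout, with medians of -0.01 in SIRT7-KO and -0.48 in USP39-KO. That gene was SLC8A2, a sodium-calcium exchanger with 0 reads in SIRT7-KO, 1 in USP39-KO and 10 in the control, where it only just met the filter. The plasma membrane pump ATP2B1, the most abundant of that list, had -0.16 in SIRT7-KO and -0.39 in USP39-KO.

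The calcium-binding and leak proteins of the store, 17 genes, had none called in either knockout (medians 0.07 in SIRT7-KO and 0.06 in USP39-KO). Their most abundant gene, the chaperone HSPA5, had 0.48 (0.46 to 0.50) in SIRT7-KO and 0.0016 in USP39-KO. The 9 mitochondrial uptake genes and the 7 endolysosomal and other cation channels also had none called, with VDAC1 of the mitochondrial outer membrane at -0.06 in SIRT7-KO and -0.09 in USP39-KO and the stretch-activated channel PIEZO1 at -0.12 in SIRT7-KO and -0.07 in USP39-KO. The median was -0.04 in SIRT7-KO and 0.11 in USP39-KO for the mitochondrial list, and 0.25 in SIRT7-KO and -0.05 in USP39-KO for the endolysosomal list, whose SIRT7-KO median was below 0 without a count filter. The calcium decoders, 19 measured genes, had 0 higher and 1 lower in each knockout (medians -0.01 in SIRT7-KO and -0.02 in USP39-KO). That gene was the kinase CAMK1, with 17 reads in SIRT7-KO, 15 in USP39-KO and 43 in the control (-1.07, -1.99 to -0.25 in SIRT7-KO and -1.25, -2.23 to -0.40 in USP39-KO). CAMK2G, the most abundant decoder, had -0.05 in SIRT7-KO and -0.15 in USP39-KO.

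The genes most like RYR1 were sought by the distance between pairs of log2 ratios (SIRT7-KO and USP39-KO, each against control) over 10044 protein-coding genes that reached 100 counts in some library. The nearest 5 were SIMC1, BHLHA15, FAM171A1, ADAP2 and ANO3, at distances of 1.52 to 1.99 log2 units. SIMC1 had 2 reads in SIRT7-KO, 125 in USP39-KO and 76 in the control, and BHLHA15 had 2 in SIRT7-KO, 102 in USP39-KO and 70 in the control. FAM171A1 had 4 reads in SIRT7-KO, 142 in USP39-KO and 101 in the control. ADAP2 had 3 in SIRT7-KO, 117 in USP39-KO and 74 in the control, and ANO3 had 0 in SIRT7-KO, 145 in USP39-KO and 128 in the control. All 5 had at most 4 reads in SIRT7-KO, which follows from the search by the RYR1 ratios and supports nothing. Their USP39-KO values were above the control by 0.42 to 0.95 on the log2 scale, against 0.06 for RYR1. The SIRT7-KO values behind these distances are imprecise, as for SIMC1, at -4.71 with an interval of -8.07 to -3.09.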

How the data were processed

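Per the labels' protocols, Trizol was used for extraction of RNA and a TruSeq kit for the libraries. The authors deposited 1 table of whole-number read counts and FPKM per gene, with a gene length, per the file headers. Aligner, counter, genome build and annotation were not stated in those sources. The deposited FPKM equal counts per listed length and library total in every gene with reads (14616, 14361 and 14711 in SIRT7-KO, USP39-KO and control), within a relative tolerance of 1e-06. FPKM served for levels between genes, and counts for all else. Symbols and coordinates came from GENCODE 29 by Ensembl identifier (19649 of 22827), and sequences from RefSeq, which had a promoter entry for 7 of the 9 genes found.

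TMM factors from edgeR 4.0.16 over all genes (1.0104, 0.9896 and 1.0000) gave effective library sizes for CPM. Fold values are CPM ratios, and log2 ratios carry a prior of 0.5 counts. Intervals are exact conditional binomial (Clopper-Pearson) at 95% of the 2 counts. Since reads carry no molecular identifiers and are not independent molecules, these intervals cover counting error only. The limit for a gene with 0 reads is 3 counts, which is 0.184 CPM in SIRT7-KO, 0.182 in USP39-KO and 0.154 in the control. Genes that reached 10 counts in some library were kept. No dispersion can be estimated with 1 library per group, so no edgeR or DESeq2 test was run. The ratio and call steps were run on simulated counts with counting error only. That run checks the arithmetic and does not cover other spread between libraries.

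The members and lists were chosen with earlier results of these data known. Named list genes are those called in any comparison with at least 30 counts in 1 library and the most abundant by control FPKM; other named genes are marked in the text as named after their values were seen. For called members the 3 nearest measured protein-coding genes on each side are named. Alternatives were DESeq2 1.42.0 size factors, library totals, other count filters, priors and a 1.5-fold rule.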

Additional observations from a re-analysis of the deposited data

How the results depend on the processing

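No paired analysis was possible because each group has 1 library, and no library could be left out. Only the 4 settings of scaling and prior can move a single gene's ratio. Under these, all 108 ratios of the 9 genes stayed within their main intervals and no called gene changed direction. STIM1 in USP39-KO against control, not called, ranged from -0.01 to 0.01. RYR1 in SIRT7-KO against control ranged from -6.03 to -5.46 and RYR2 in USP39-KO against control from 1.23 to 1.26. With at least 100 counts, RYR3 was no longer measured. RYR1, which chose the set, was then the only member lower in SIRT7-KO against control. All genes gave 136 higher and 210 lower in SIRT7-KO, 48 and 126 in USP39-KO, and 281 and 221 between the knockouts. Calcium list genes gave 0 and 2 in SIRT7-KO, 1 and 2 in USP39-KO, and 0 and 2 between the knockouts. With a 1.5-fold rule all genes gave 917 higher and 997 lower in SIRT7-KO, 406 and 814 in USP39-KO, and 1316 and 1006 between the knockouts. The calcium list genes called higher were then 12 in SIRT7-KO, 4 in USP39-KO and 14 between the knockouts, and those called lower were 10 in SIRT7-KO, 9 in USP39-KO and 9 between them. Between the knockouts 1 of the 9, ATP2A3, was then higher and 3 were lower, with ITPR1 added. The 100-count filter tests fewer genes, a number not given here, so its counts are not shares and are not compared with each other. The 1.5-fold rule is wider by construction and was read over the same 12726 genes, 127 list genes and 9 members. Of the 20 list medians of a knockout against the control, 5 changed sign under some setting. Without a count filter the endolysosomal median in SIRT7-KO was -0.11, against 0.25, and the store-operated entry median was -0.01 in SIRT7-KO, against 0.14, and -0.11 in USP39-KO, against 0.17. With at least 100 counts store-operated entry in SIRT7-KO was -0.01. The other 2, SERCA regulators and decoders in SIRT7-KO, lay near 0. With at least 100 counts the USP39-KO medians were -0.15, against -0.48, for SERCA regulators and 0.05, against 0.26, for voltage-gated channels. Between the knockouts 4 of 10 medians changed sign, the farthest to -0.29 for voltage-gated channels without a filter. Without RYR1 the summed ryanodine receptor ratio was -0.35 in SIRT7-KO, 1.15 in USP39-KO and -1.49 between the knockouts. Depth limits RYR1 in SIRT7-KO, which rests on 3 reads, and RYR3.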

Other observations

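The genes beside the called ryanodine receptors were read as values. On chromosome 19, FAM98C ends 24.6 kb to the left of RYR1 and EIF3K begins 31.5 kb to its right, in GENCODE 29. FAM98C had 189 reads in SIRT7-KO, 167 in USP39-KO and 213 in the control, and EIF3K, a subunit of a translation initiation factor, had 2171 in SIRT7-KO, 2185 in USP39-KO and 2659 in the control. SPRED3 had 29 reads in SIRT7-KO, 25 in USP39-KO and 38 in the control, and GGN had 30 in SIRT7-KO, 18 in USP39-KO and 28 in the control. The actin-binding protein ACTN4 had 14542 in SIRT7-KO, 16406 in USP39-KO and 19443 in the control. None of the 6 neighbours was called in SIRT7-KO against control, where their log2 ratios ran from -0.17 for ACTN4 to 0.92 for CAPN12. CAPN12 had 53 reads in SIRT7-KO, 13 in USP39-KO and 33 in the control, and was called lower in USP39-KO (-1.08, interval -2.15 to -0.14). Its annotated span overlaps the end of ACTN4 on the opposite strand, so its reads are uncertain.

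Beside RYR2 on chromosome 1, MTR, a methionine synthase, had 2474 reads in SIRT7-KO, 2079 in USP39-KO and 2228 in the control, and the muscarinic receptor CHRM3 had 65 in SIRT7-KO, 67 in USP39-KO and 107 in the control. None of the 6 RYR2 neighbours, which also include LGALS8, HEATR1, FH and KMO, was called in either knockout. They are the nearest measured genes, and some are far off. CHRM3 lies 1553 kb, FH 3664 kb and KMO 3698 kb from RYR2. Beside RYR3 on chromosome 15, the span of AVEN, on the opposite strand, starts 0.106 kb beyond its end. AVEN, an inhibitor of cell death, had 94 reads in SIRT7-KO, 146 in USP39-KO and 178 in the control, with a log2 ratio of -0.67 (-1.05 to -0.30) in SIRT7-KO against control. OTUD7A, ARHGAP11A, SCG5, EMC7 and PGBD4, the other neighbours of RYR3, had log2 ratios of -0.10 to 0.62 in SIRT7-KO, and none was called. The farthest, OTUD7A, lies 1440 kb from RYR3.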
